A study of Homo sapiens with 6 samples.

Results

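Collagens and laminins are the structural proteins of the extracellular matrix, and their genes were followed here in a breast cancer cell line with and without knockdown of S100A10. The set took every probe set whose gene symbol was COL, digits, A and digits, or LAMA, LAMB or LAMC and a digit, and kept the brightest probe set of each gene. It held 41 genes of 15669 named on the array, each with 1 probe set: 8 laminin chains, 8 collagens of the basement membrane or its border zone, 9 fibrillar collagens and 16 other collagens. Another 15 genes of both families in the RefSeq table, among them COL1A1, COL3A1, COL7A1, LAMA3 and LAMA5, were not analysed here.

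MDA-MB-231, the line used, is long established and models human breast cancer of the triple-negative kind. All 3 groups carried a short hairpin RNA and grew in RPMI1640 with 10% serum and 2.5 µg/ml puromycin, with no further treatment. The groups were shNCT, the control hairpin, and shS100A10_1 and shS100A10_5, separate hairpin sequences against S100A10 delivered by lentivirus, with 2 arrays each. The labels do not say whether a line was a clone or a pool, or whether arrays of one group were grown apart. P-values here therefore measure only the spread between the arrays, which may be technical. In extracts of whole cultures, fewer cells that make a transcript and less of it per cell cannot be told apart.

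Basement membranes are thin sheets under epithelia and around vessels. Laminins, secreted as trimers of an alpha, a beta and a gamma chain, form their first network, and type IV collagen forms the second, covalently linked one. Fibrillar collagens such as types I, II, III, V and XI are instead made as long triple helices that assemble into the banded fibrils of stroma, tendon and cartilage. Cancer cells of epithelial origin meet the basement membrane first and the fibrillar stroma once they invade.

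The array median intensity lay between 232 and 238. S100A10 was lower by 5.70 (log2 change -5.70, SE 0.21) with shS100A10_1 and by 3.004 (-3.004, SE 0.21) with shS100A10_5 (limma, adjusted p = 1.71e-06 and 0.000442). VIM (control log2 level 16.50), AXL (14.77) and ZEB1 (12.87), genes typical of this mesenchymal line, were bright. CDH1 (3.78), which encodes E-cadherin, lay below the lower quartile of probe set means, 4.98. The list they came from also held CD44 and the epithelial or luminal genes EPCAM, ESR1, KRT8 and KRT18. Of its 8 measured genes, 7 lay above the median of probe set means, epithelial or luminal ones among them. CDH1 alone lay below the lower quartile. Of 10 fibroblast markers, 7 had control levels below that quartile, among them PDGFRA, DCN, LUM, THY1 and FAP. The summed intensity of the list was 2607 to 3277 with shNCT, 2988 to 3571 with shS100A10_1 and 2497 to 3364 with shS100A10_5, and 0 of the 10 passed the limma threshold of an adjusted p of 0.05 in any comparison. With each hairpin, 3 of the 10 were above control before adjustment (p under 0.05): PDGFRA, DCN and ACTA2 with shS100A10_1, and PDGFRA, PDGFRB and LUM with shS100A10_5, against 4.28% and 10.7% of all probe sets higher. The 4 endothelial markers measured summed to 275 to 284 with shNCT, 212 to 261 with shS100A10_1 and 231 to 245 with shS100A10_5, with none called. The 5 leukocyte markers summed to 6500 to 6745, 7633 to 8079 and 4619 to 6091 in the same order, and LYZ, the lysozyme gene, rose with both hairpins (1.56 and 1.35; limma, adjusted p = 0.00869 and 0.00865). The LYZ calls were lost without shNCT replicate 1 (adjusted p = 0.0773 and 0.0604) or shNCT replicate 2 (0.0994 and 0.0859), the first also without shS100A10_1 replicate 2 (0.0549) and the second without shS100A10_5 replicate 2 (0.0993). The part of these markers in the results was not tested. Single arrays weighed on the number of calls, which was 539 of all probe sets with shS100A10_5. It fell steeply without shS100A10_5 replicate 2 and also without either shNCT array, and it rose without shS100A10_5 replicate 1. Each of these fits leaves a single array in a group. Longer genes deviated upward on shS100A10_5 replicate 2 (Spearman's rho of deviation with gene span 0.247 across genes, which are not replicates). On the other arrays rho ran from -0.207 to 0.0354. Members are long genes, with a median span of 150.2 kb against 26.6 kb for all named probe sets. The calls and class medians are therefore also given without shS100A10_5 replicate 2.

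The sequences just upstream of the genes that carry the results are shown first, from RefSeq on GRCh38.p14. They are LAMB1 and LAMB2, the members called lower with shS100A10_5 only, and LAMC1, which encodes the gamma chain that pairs with both. The last is the short interval from which COL4A1 and COL4A2 are transcribed in opposite directions. The first 3 are the 250 bases before the start of the gene, and the last is the 126 bases between the starts, read in the direction of COL4A1. Capitals mark GC boxes (GGGCGG) and CCAAT boxes (CCAAT) on either strand, and TATAAA was searched as well.
LAMB1, chr7:108003162-108003411, minus strand: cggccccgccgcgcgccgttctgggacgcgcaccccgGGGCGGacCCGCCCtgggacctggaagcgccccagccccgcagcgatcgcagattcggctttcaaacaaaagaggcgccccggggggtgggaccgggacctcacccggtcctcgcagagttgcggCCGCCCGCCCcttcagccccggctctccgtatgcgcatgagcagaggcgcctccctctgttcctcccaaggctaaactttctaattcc
LAMB2, chr3:49133051-49133300, minus strand: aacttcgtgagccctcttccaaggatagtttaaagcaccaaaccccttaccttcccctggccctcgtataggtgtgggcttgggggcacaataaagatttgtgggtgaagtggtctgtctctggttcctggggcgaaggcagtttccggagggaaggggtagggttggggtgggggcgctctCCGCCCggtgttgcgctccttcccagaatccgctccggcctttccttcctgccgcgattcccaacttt
LAMC1, chr1:183023170-183023419, plus strand: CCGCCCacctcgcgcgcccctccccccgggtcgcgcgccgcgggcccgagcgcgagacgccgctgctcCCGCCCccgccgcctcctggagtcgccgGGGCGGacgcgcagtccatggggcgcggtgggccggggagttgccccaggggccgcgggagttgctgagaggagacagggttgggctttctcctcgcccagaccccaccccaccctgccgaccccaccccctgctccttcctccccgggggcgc
COL4A1-COL4A2, chr13:110307158-110307283, minus strand: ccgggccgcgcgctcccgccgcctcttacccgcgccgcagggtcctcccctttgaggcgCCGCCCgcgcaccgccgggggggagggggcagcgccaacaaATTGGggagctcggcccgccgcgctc

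The LAMB1 window held 4 GC boxes, of which a pair overlap, the LAMC1 window 3 and the LAMB2 window 1, and none of these windows held CCAAT or TATAAA. GC content was 70.4% for LAMB1, 58.4% for LAMB2 and 79.6% for LAMC1, against a median of 58.0% over 35116 promoter windows of the same length. A GC box was found in 42.6% of those windows, CCAAT in 32.0% and TATAAA in 10.7%. The interval between COL4A1 and COL4A2 held 1 GC box and 1 CCAAT box. A match is a description of letters, not of a bound site. Upstream windows were at hand for 32 of the 41 members, and 21 of these held a GC box, 10 CCAAT and 4 TATAAA. These count genes with a match in any of their windows, while the shares above count single windows, so the measures are unlike.

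In the control cells, 11 of the 41 members had a mean log2 level above the median of all probe set means (7.88), 2 above the upper quartile (10.73) and 13 below the lower quartile (4.98). Probe sets differ in brightness for reasons other than RNA amount, so these positions are a guide to signal and the genes are not ranked by them. The 2 above the upper quartile were LAMC1, at 12.04 ± 0.10 (SD, n = 2), and COL8A1, which encodes a short-chain network collagen of vessel walls and corneal membranes, at 12.50 ± 0.02. Of the 16 basement membrane members 4 lay above the median, LAMB1, LAMB2, LAMC1 and COL4A2, and 5 below the lower quartile. Of the 9 fibrillar collagens 2 lay above the median, COL1A2 and COL5A1, and 4 below the lower quartile. The other members above the median were COL6A1, COL8A1, COL12A1, COL13A1 and COL23A1.

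**Figure D1:**
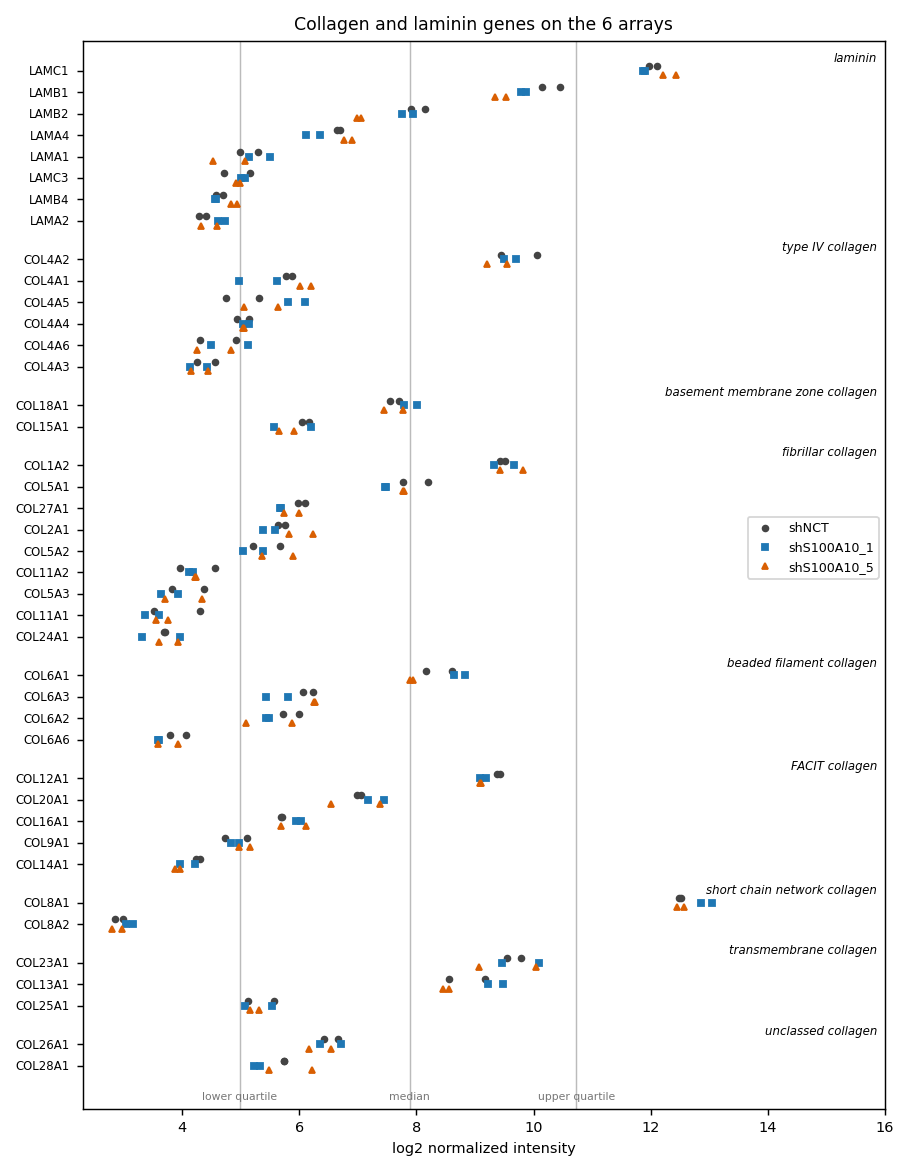
Log2 normalized intensity (x axis) of the 41 members on each of the 6 arrays, grouped by class, with 1 point per array and the quartiles of all probe set means as grey lines. LAMC1 and COL8A1 lie above the upper quartile line at 10.73, and most members of the other classes lie below the median line at 7.88.

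Among the laminin chains, LAMB1 and LAMB2 fell with shS100A10_5. That hairpin left 12.5% of the control S100A10 intensity, against 1.92% with shS100A10_1. LAMB1 encodes the beta 1 chain, found in most laminin trimers of early and epithelial basement membranes. The control arrays gave LAMB1 intensities of 1130 and 1402, those of shS100A10_1 gave 939 and 878, and those of shS100A10_5 gave 647 and 741. Neither hairpin overlapped the control, and both shS100A10_5 arrays lay below both shS100A10_1 arrays. On the log2 scale the level went from 10.30 ± 0.22 (SD, n = 2) to 9.44 ± 0.14 with shS100A10_5, a change of -0.86 (SE 0.18; limma, adjusted p = 0.0385) that left 55.0% of the control intensity. With shS100A10_1 the LAMB1 change was -0.47 (SE 0.18; limma, adjusted p = 0.510). The difference between the hairpins, -0.39 (95% interval -0.80 to 0.02), did not pass (limma, adjusted p = 0.271).

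LAMB2 encodes the beta 2 chain of the basement membranes of muscle, the kidney glomerulus and vessels. The control arrays gave LAMB2 intensities of 239 and 283, those of shS100A10_1 gave 216 and 247, and those of shS100A10_5 gave 126 and 133. Both shS100A10_5 arrays were below all 4 others, while the shS100A10_1 arrays overlapped the controls. The log2 level fell from 8.02 ± 0.17 (SD, n = 2) to 7.02 ± 0.05 with shS100A10_5, by 1.005 (log2 change -1.005, SE 0.18; limma, adjusted p = 0.0221), which left 49.8% of the control intensity. With shS100A10_1 the LAMB2 change was -0.17 (SE 0.18; limma, adjusted p = 0.869). The test between the hairpins gave LAMB2 a log2 difference of -0.83 (SE 0.18; limma, adjusted p = 0.0393), the lower level being that of shS100A10_5.

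All of these calls depended on single arrays, since 2 arrays per group leave little to spare. Without shS100A10_5 replicate 2, LAMB1 and LAMB2 had changes of -0.96 and -1.04 (adjusted p = 0.1504 and 0.130), and without shNCT replicate 1 they had -1.02 and -1.13 (0.108 and 0.0861). Without shNCT replicate 2 they had -0.71 and -0.88 (0.259 and 0.184), and without shS100A10_5 replicate 1 LAMB1 had -0.76 (0.0690) while LAMB2 still passed (-0.97, 0.0449). The LAMB2 difference between hairpins missed the threshold whichever of the 6 arrays was left out, with values from -0.93 to -0.73 and adjusted p from 0.0628 to 0.181. Array weights ended the LAMB1 call (adjusted p = 0.0660) and the LAMB2 difference between hairpins (0.0695), which also missed with a trend on gene span removed (0.0524) and with only both hairpin groups in the fit (0.0628).

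LAMC1, the gene of the gamma 1 chain that assembles with either beta chain, had log2 levels of 11.97 and 12.11 with shNCT, 11.87 and 11.90 with shS100A10_1 and 12.43 and 12.21 with shS100A10_5. Both shS100A10_5 arrays lay above all others, with a log2 change of 0.29 (95% interval -0.10 to 0.67; limma, adjusted p = 0.382). LAMA4, whose alpha 4 chain is known from endothelial and mesenchymal basement membranes, had log2 levels of 6.69 and 6.64 with shNCT, 6.35 and 6.11 with shS100A10_1, and 6.77 and 6.90 with shS100A10_5. It was low on both shS100A10_1 arrays only, with a change of -0.44 (SE 0.17; limma, adjusted p = 0.537) against 0.17 with shS100A10_5 (limma, adjusted p = 0.625), and a difference between hairpins of 0.61 (SE 0.17; limma, adjusted p = 0.0946).

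LAMA2, the alpha 2 chain gene of muscle laminin, had log2 levels of 4.28 and 4.42 with shNCT, 4.73 and 4.61 with shS100A10_1, and 4.59 and 4.32 with shS100A10_5, all below the lower quartile of the array. The other laminin genes were LAMA1, the alpha 1 chain of embryonic laminin, LAMC3, the gamma 3 chain, and LAMB4, for which no trimer is well described. Their control levels lay between 4.63 and 5.14. Their changes ran from -0.07 to 0.18 with shS100A10_1 and from -0.34 to 0.25 with shS100A10_5. LAMB4 lies next to LAMB1 on the same chromosome, and its change with shS100A10_5 was 0.25 (SE 0.17; limma, adjusted p = 0.429).

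**Figure D2:**
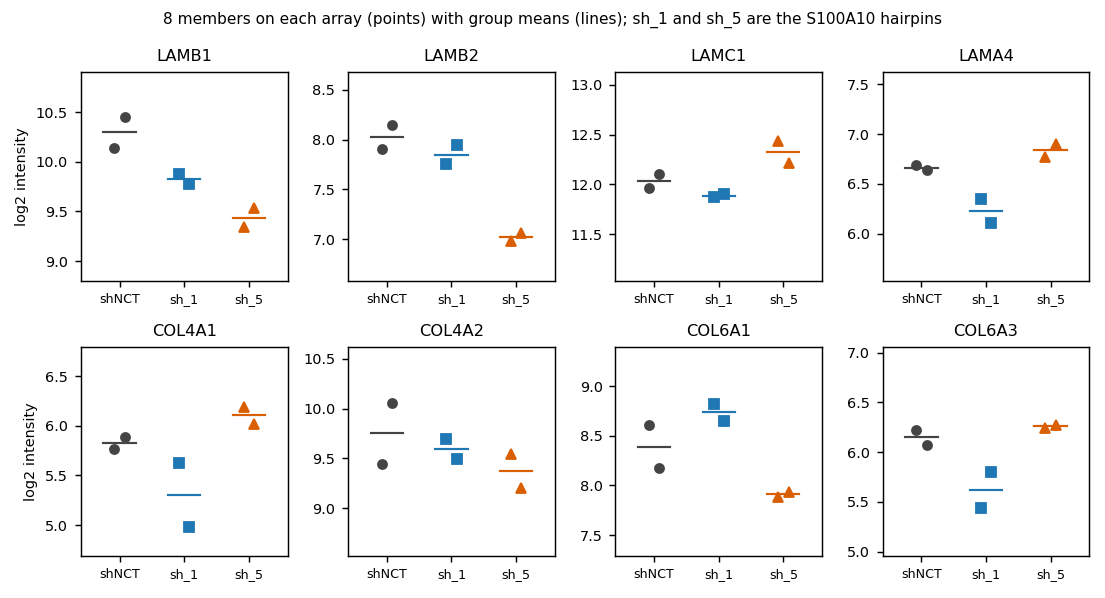
Log2 normalized intensity (y axis, the same height of 2.1 log2 units in each panel) of 8 members on each array, as points, with group means as lines; sh_1 and sh_5 stand for shS100A10_1 and shS100A10_5. LAMB1, LAMB2, COL4A2 and COL6A1 have their lowest group mean with shS100A10_5, and LAMC1, LAMA4, COL4A1 and COL6A3 with shS100A10_1.

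Type IV collagen, the network collagen of basement membranes, is encoded by 6 genes in 3 head-to-head pairs. The starts lie 126 bases apart for COL4A1 and COL4A2, 379 for COL4A5 and COL4A6 and 418 for COL4A3 and COL4A4. None of the 6 genes passed the limma threshold in any comparison, and their smallest adjusted p was 0.0830, for COL4A1 between the hairpins. Of all probe sets 0.189% passed with shS100A10_1, 3.18% with shS100A10_5 and 2.91% between the hairpins. Before adjustment (p under 0.05) there were 2 of 6 with shS100A10_1 (33.3% against 8.44% of all probe sets) and 0 with shS100A10_5 (against 21.0%). Between the hairpins there were 2 of 6 (33.3% against 19.9%). COL4A1 had log2 levels of 5.77 and 5.88 with shNCT, 5.62 and 4.98 with shS100A10_1, and 6.19 and 6.02 with shS100A10_5. The 3 groups did not overlap, with a change of -0.52 (SE 0.22; limma, adjusted p = 0.555) with shS100A10_1, 0.28 (adjusted p = 0.514) with shS100A10_5, and a difference of 0.81 between the hairpins.

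COL4A2, transcribed from the other side of the same interval, had log2 levels of 9.45 and 10.06 with shNCT, 9.70 and 9.49 with shS100A10_1, and 9.54 and 9.20 with shS100A10_5. Its control arrays lay far apart and every group overlapped the others, with changes of -0.16 and -0.38 (SE 0.23 each). The pair therefore had changes of opposite sign with shS100A10_5, neither past the threshold. COL4A5, an alpha 5 chain gene expressed in the kidney glomerulus and under epithelia, had log2 levels of 5.32 and 4.75 with shNCT, 5.82 and 6.10 with shS100A10_1, and 5.05 and 5.64 with shS100A10_5. Its change of 0.92 with shS100A10_1 (SE 0.25; limma, adjusted p = 0.304) was the farthest from 0 of all 41 members in that comparison, from a control level of 5.03 ± 0.40 (SD, n = 2). Its partner COL4A6 had 4.92 and 4.31 with shNCT, 5.12 and 4.49 with shS100A10_1, and 4.26 and 4.83 with shS100A10_5, with overlap everywhere. COL4A3 and COL4A4, the chains of the mature glomerular membrane, were dim (control log2 levels 4.40 and 5.03) and their changes lay between -0.12 and 0.06.

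COL15A1 and COL18A1 encode the multiplexins of the basement membrane zone, and COL18A1 is the source of endostatin. COL18A1 had log2 levels of 7.71 and 7.55 with shNCT, 7.78 and 8.01 with shS100A10_1, and 7.77 and 7.45 with shS100A10_5. COL15A1 had 6.04 and 6.17 with shNCT, 5.57 and 6.21 with shS100A10_1, and 5.65 and 5.91 with shS100A10_5. Their changes lay between -0.33 and 0.27, and the shS100A10_5 arrays of COL15A1 were below both controls without passing (limma, adjusted p = 0.452).

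None of the 9 fibrillar collagens passed the limma threshold against the control with either hairpin. Before adjustment (p under 0.05) there was 1 of 9 (11.1%), COL5A1, lower with shS100A10_1, and 0 with shS100A10_5, against 8.44% and 21.0% of all probe sets in either direction. The first share is near that of all probe sets and the second below it. For the 16 basement membrane members the shares were 25% (1 higher and 3 lower) with shS100A10_1 and 12.5% (0 higher and 2 lower) with shS100A10_5. COL5A1 encodes a type V chain that sets fibril diameter. It had log2 levels of 7.77 and 8.20 with shNCT, 7.47 and 7.48 with shS100A10_1, and 7.77 and 7.80 with shS100A10_5. Both shS100A10_1 arrays lay below the other 4, with a change of -0.51 (SE 0.19; limma, adjusted p = 0.463).

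COL1A2, which encodes the second chain of type I collagen, the main collagen of stroma and bone, had 9.503 and 9.43 with shNCT, 9.32 and 9.66 with shS100A10_1, and 9.42 and 9.82 with shS100A10_5. All 3 groups overlapped, with changes of 0.02 (95% interval -0.43 to 0.47) and 0.15 (-0.29 to 0.60). COL2A1, the cartilage collagen gene, had 5.64 and 5.75 with shNCT, 5.38 and 5.59 with shS100A10_1, and 5.83 and 6.23 with shS100A10_5, so that its groups did not overlap. It differed by 0.54 between the hairpins (SE 0.19; limma, adjusted p = 0.157).

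COL27A1, a fibrillar collagen of cartilage, had log2 levels of 6.09 and 5.98 with shNCT, 5.69 and 5.66 with shS100A10_1, and 5.99 and 5.74 with shS100A10_5. COL11A1, a type XI chain gene often measured as a marker of cancer-associated fibroblasts, had 3.52 and 4.30 with shNCT, 3.36 and 3.61 with shS100A10_1, and 3.76 and 3.55 with shS100A10_5. The first had no overlap between shS100A10_1 and control (change -0.36; limma, adjusted p = 0.624), and the second was near the bottom of the array's range with overlap in every comparison. COL5A2, COL5A3, COL11A2 and COL24A1 had changes between -0.32 and 0.19 and overlapped the controls with both hairpins.

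Across all 41 members, 0 passed the limma threshold with shS100A10_1, where 0.189% of the 16965 probe sets passed (0.100% higher and 0.0884% lower). Before adjustment (p under 0.05), 2 members had higher levels and 5 lower, 17.1% of the members against 8.44% of all probe sets (4.28% higher and 4.16% lower). The hairpin arrays did not overlap the controls for 9 members higher and 14 lower, 56.1% against 42.4% (21.9% higher and 20.5% lower). The median change of the members was -0.11 against 0.01 for all probe sets, and the median size was 0.23 against 0.15. The fibrillar collagens had a median of -0.23, with 8 of 9 negative. The basement membrane members had a median of -0.10, with 9 of 16 negative, against 49.0% negative over all probe sets. Without shNCT replicate 1 the fibrillar count was 6 of 9 negative, and without shNCT replicate 2 it was 9 of 9. It stayed at 8 of 9 without any other array, and was 4 of 5 with dim probe sets left out.

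With shS100A10_5, 2 of the 41 members passed, both lower, or 4.88% against 3.18% of all probe sets (1.43% higher and 1.75% lower). Before adjustment (p under 0.05) there were 0 members higher and 3 lower, COL6A1 beside those called, or 7.32% against 21.0% of all probe sets (10.7% higher and 10.3% lower). Arrays did not overlap the controls for 6 members higher and 7 lower, 31.7% against 50.5% (26.7% higher and 23.8% lower). The median size of the members' changes was 0.17 against 0.22. The members' share was thus below that of all probe sets by the unadjusted and overlap counts, and the adjusted count rests on 2 laminin genes. These shares differed with level. For the 11 members with control levels above the median they were 27.3% and 54.5%, against 28.3% and 60.6% of all probe sets above it. Both called genes were among these 11, or 18.2% against 4.53%. For the 30 members at or below the median the unadjusted and overlap shares were 0% and 23.3%. Over all 16965 probe sets, 3564 had an unadjusted p under 0.05 and 8575 did not overlap. Of these, 2400 and 5140 were among the 8479 above the median. The rest lay at or below it, so dim probe sets as a whole did hold such changes.

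The fibrillar median with shS100A10_5 was -0.04, with 5 of 9 negative, and the basement membrane median was -0.0009, with 8 of 16 negative, against 46.7% of all probe sets. Without shS100A10_5 replicate 2 the medians were -0.0446, with 6 of 9 negative, and 0.0276, with 6 of 16 negative. Leaving LAMB1 and LAMB2 aside, basement membrane members had changes from -0.38 (COL4A2) to 0.31 (COL4A5). Members share arrays and are not replicates of a condition, so these class values are a description and carry no test.

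**Figure D3:**
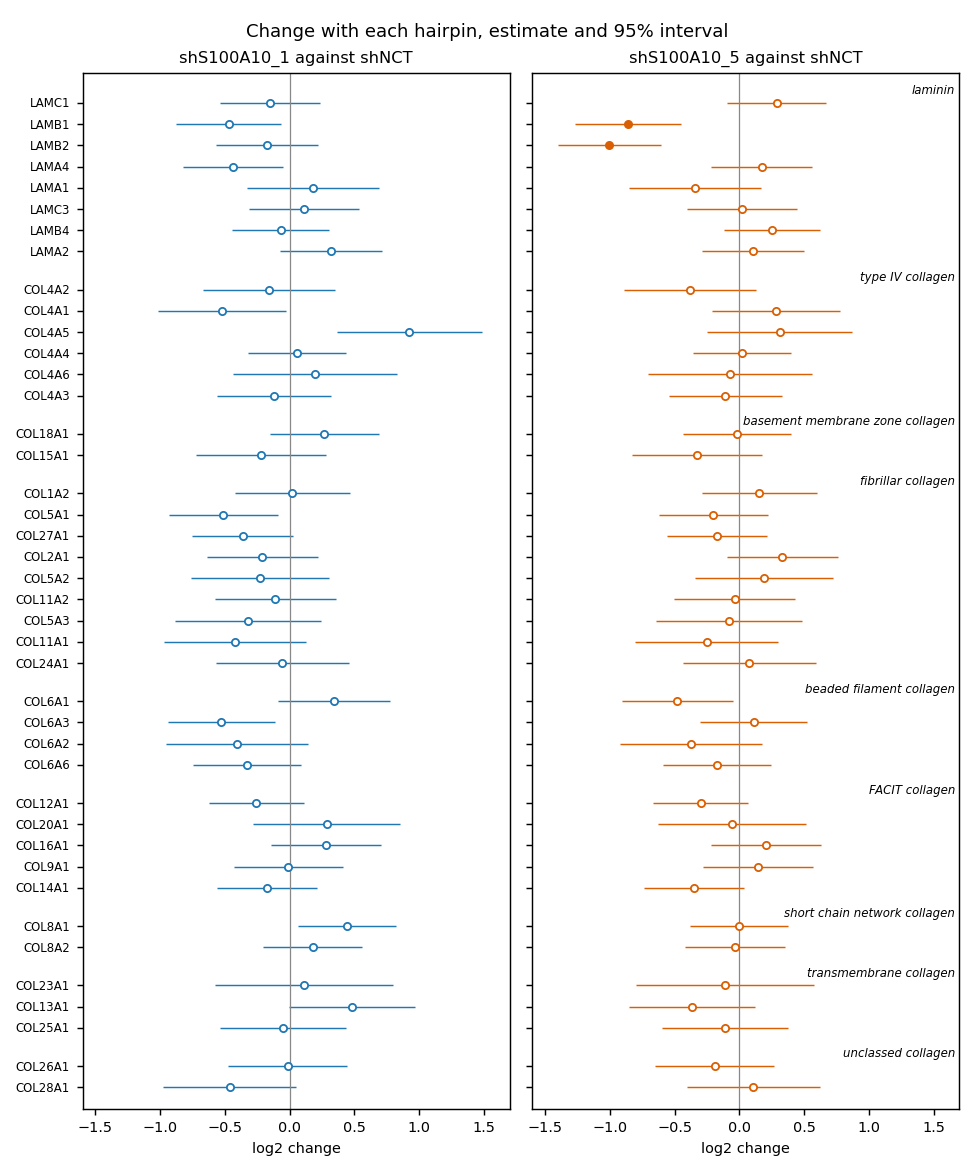
Log2 change (x axis) of each member against shNCT for shS100A10_1 (left) and shS100A10_5 (right), with 95% intervals from the fit as bars and filled points for an adjusted p under 0.05. LAMB1 and LAMB2 with shS100A10_5 are the 2 filled points, and the median interval reaches 0.43 to either side of its estimate.

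Between the hairpins, LAMB2 was the 1 member past the limma threshold, or 2.44% of the members against 2.91% of all probe sets (1.43% higher and 1.48% lower). Before adjustment (p under 0.05), 6 members were higher and 6 lower with shS100A10_5 than with shS100A10_1, 29.3% against 19.9% of all probe sets (10.1% higher and 9.80% lower). Arrays did not overlap for 10 members higher and 12 lower, 53.7% against 49.0% (25.6% higher and 23.4% lower). All 9 fibrillar collagens were higher with shS100A10_5, from 0.07 (COL11A2) to 0.54 (COL2A1) with a median of 0.19. The count was 8 of 9 without either shS100A10_1 array or without shS100A10_5 replicate 1, and 7 of 9 without shS100A10_5 replicate 2. The fibrillar median moved to 0.304 without shS100A10_1 replicate 1, 0.297 without shS100A10_5 replicate 2, 0.31 with dim probe sets left out (5 genes) and 0.10 with the span trend removed. Of the basement membrane members 11 of 16 were lower, with a median of -0.16 and a range from -0.83 (LAMB2) to 0.81 (COL4A1). That median was -0.0716 without shS100A10_5 replicate 2 and -0.26 with the span trend removed. Over all probe sets 52.0% were higher, and the median was 0.02. Before adjustment (p under 0.05) there were 6 of the 16 basement membrane members (37.5%, 3 higher and 3 lower). Of the 9 fibrillar collagens there was 1 (11.1%), higher.

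**Figure D4:**
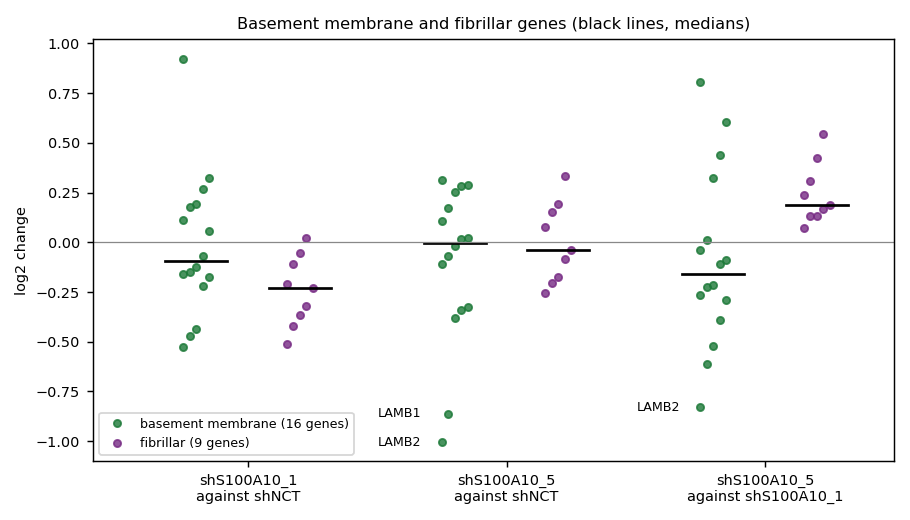
Log2 change (y axis) of the 16 basement membrane and 9 fibrillar genes in the 3 comparisons, 1 point per gene, with class medians as black lines and names for genes with an adjusted p under 0.05. The fibrillar genes lie above 0 between the hairpins, where the basement membrane genes spread from -0.83 to 0.81.

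Among the other collagens, those of type VI, which form beaded filaments that link basement membranes to the matrix around them, had values that diverged between their chains. COL6A1 had log2 levels of 8.61 and 8.17 with shNCT, 8.82 and 8.65 with shS100A10_1, and 7.89 and 7.93 with shS100A10_5. No group overlapped another, and the difference between the hairpins was -0.82 (SE 0.19; limma, adjusted p = 0.0520), from changes of 0.35 and -0.48 (limma, adjusted p = 0.697 and 0.192). With every array kept, the COL6A1 difference passed in 3 of 10 alternatives. These were the replicate number in the fit, dim probe sets left out and the prior variance following intensity. Array weights gave it a limma adjusted p of 0.0946. With 1 array left out the difference ran from -0.914 to -0.735.

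COL6A2, the next gene on the chromosome, had log2 levels of 6.003 and 5.72 with shNCT, 5.49 and 5.43 with shS100A10_1, and 5.88 and 5.09 with shS100A10_5. It was lower than control on both shS100A10_1 arrays, where COL6A1 was higher. COL6A3, the longest of the chains, had 6.23 and 6.07 with shNCT, 5.44 and 5.80 with shS100A10_1, and 6.25 and 6.27 with shS100A10_5. Its difference between the hairpins was 0.64 (SE 0.19; limma, adjusted p = 0.0983), opposite in sign to that of COL6A1. COL6A6, an alternative chain, had 3.80 and 4.06 with shNCT, 3.61 and 3.59 with shS100A10_1, and 3.93 and 3.59 with shS100A10_5.

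COL13A1, a transmembrane collagen of adhesion sites and the neuromuscular junction, had log2 levels of 8.56 and 9.17 with shNCT, 9.47 and 9.23 with shS100A10_1, and 8.55 and 8.45 with shS100A10_5. Its shS100A10_1 arrays were above and its shS100A10_5 arrays below both controls, by a narrow margin on each side. The difference between the hairpins was -0.85 (SE 0.22; limma, adjusted p = 0.0685). With every array kept it passed in 2 of 10 alternatives, dim probe sets left out and an intensity trend. The highest limma adjusted p among the 10 was 0.129. With 1 array left out the difference ran from -0.968 to -0.727. COL23A1, another transmembrane collagen, had 9.79 and 9.55 with shNCT, 10.10 and 9.46 with shS100A10_1, and 10.04 and 9.07 with shS100A10_5, so that replicates of 1 group lay farther apart than the group means. COL25A1, known from neurons, had 5.13 and 5.56 with shNCT, 5.07 and 5.53 with shS100A10_1, and 5.32 and 5.16 with shS100A10_5.

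COL8A1 had log2 levels of 12.48 and 12.52 with shNCT, 12.86 and 13.04 with shS100A10_1, and 12.56 and 12.44 with shS100A10_5. It was higher on both shS100A10_1 arrays by a change of 0.45 (95% interval 0.07 to 0.82; limma, adjusted p = 0.494), and its change with shS100A10_5 was 0.0003 (95% interval -0.38 to 0.38). COL8A2, the other type VIII chain, had log2 levels of 2.86 and 2.997 with shNCT, 3.16 and 3.04 with shS100A10_1, and 2.98 and 2.80 with shS100A10_5, all far below the lower quartile.

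The FACIT collagens sit on the surface of fibrils and do not form fibrils themselves. COL12A1, found on fibrils of tendon and of stroma under tension, had log2 levels of 9.37 and 9.42 with shNCT, 9.09 and 9.19 with shS100A10_1, and 9.08 and 9.11 with shS100A10_5. It lay below both controls on all 4 hairpin arrays, by -0.26 and -0.30 (SE 0.17 each; limma, adjusted p = 0.751 and 0.333), comparisons that share the control arrays. COL16A1 had 5.69 and 5.71 with shNCT, 5.94 and 6.02 with shS100A10_1, and 5.69 and 6.12 with shS100A10_5. COL20A1 had 7.06 and 6.98 with shNCT, 7.17 and 7.44 with shS100A10_1, and 7.38 and 6.54 with shS100A10_5. COL14A1 had 4.31 and 4.23 with shNCT, 4.22 and 3.97 with shS100A10_1, and 3.96 and 3.88 with shS100A10_5, the last below both controls at dim levels (change -0.35; limma, adjusted p = 0.281). The changes of COL9A1, a cartilage collagen, were -0.01 and 0.15.

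COL28A1, a collagen with von Willebrand factor A domains, had log2 levels of 5.74 and 5.74 with shNCT, 5.34 and 5.23 with shS100A10_1, and 6.22 and 5.49 with shS100A10_5. COL26A1 had 6.67 and 6.42 with shNCT, 6.71 and 6.35 with shS100A10_1, and 6.54 and 6.17 with shS100A10_5. The replicates of COL28A1 with shS100A10_5 lay on either side of the controls, and COL26A1 overlapped in every comparison.

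Genes that work beside the members were taken from 3 lists. Of 20 other basement membrane components 18 were measured, and 0 passed the limma threshold in any comparison. Before adjustment (p under 0.05), the counts were 1 higher and 3 lower with shS100A10_1 (22.2% against 8.44% of all probe sets), and 1 and 1 with shS100A10_5 (11.1% against 21.0%). With shS100A10_1 the smallest p belonged to NTN4, a netrin that binds laminin gamma chains (change 0.82, SE 0.22; limma, adjusted p = 0.286), PXDN, the peroxidase that crosslinks type IV collagen (-0.61, SE 0.17; 0.304), and HSPG2, which encodes perlecan (-0.68, SE 0.20; 0.341). With shS100A10_5 they belonged to AGRN, which encodes agrin (-0.55; limma, adjusted p = 0.202), FREM1 (0.65; 0.214) and FREM2 (-0.40; 0.244).

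Of 37 genes for collagen modification, export and crosslinking 33 were measured. With shS100A10_1 0 passed by limma, and before adjustment (p under 0.05) 1 was higher and 2 lower (9.09% against 8.44% of all probe sets). With shS100A10_5 1 of the 33 fell (3.03% against 3.18% of all probe sets called), LOXL3, a lysyl oxidase that crosslinks collagen (change -0.83, SE 0.19; limma, adjusted p = 0.0479), and before adjustment 4 were higher and 7 lower (33.3% against 21.0%). The LOXL3 call was lost with each array centred on its median (adjusted p = 0.0513), with robust hyperparameters (0.0515), with array weights (0.0789), and without shNCT replicate 1 (0.192), shNCT replicate 2 (0.209), shS100A10_5 replicate 1 (0.0898) or shS100A10_5 replicate 2 (0.164). P3H1, a collagen prolyl 3-hydroxylase (-0.69; limma, adjusted p = 0.0694), and PREB, an exchange factor for vesicle export (-0.69; 0.106), had the next smallest p. With shS100A10_1 the smallest belonged to LOXL4 (0.69; limma, adjusted p = 0.320), SEC24D, a coat protein needed for procollagen export (-0.65; 0.392), and LOXL1 (-0.63; 0.394).

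Of 19 receptors for collagen and laminin 14 were measured, and 0 passed by limma with shS100A10_1, with 3 higher and 2 lower before adjustment (35.7% against 8.44% of all probe sets). With shS100A10_5 the counts before adjustment were 3 higher and 3 lower (42.9% against 21.0%). By limma 1 was called higher and 1 lower with that hairpin, 14.3% of the 14 against 3.18% of all probe sets. ITGA2, the alpha 2 integrin subunit for collagen, rose by 1.31 (SE 0.19; limma, adjusted p = 0.00968). SDC1, the proteoglycan syndecan 1, fell by 1.29 (change -1.29, SE 0.19; limma, adjusted p = 0.0107). Both calls were lost without shNCT replicate 1 (adjusted p = 0.0788 for ITGA2 and 0.0631 for SDC1), shNCT replicate 2 (0.0859 and 0.1003) or shS100A10_5 replicate 2 (0.0993 and 0.117). ITGA3, a subunit of a main laminin receptor, had a change of -0.65 (limma, adjusted p = 0.0669) with shS100A10_5. Between the hairpins 1 of the 14 was called, lower with shS100A10_5 (7.14% against 2.91% of all probe sets). ITGB4, the beta 4 subunit of the laminin receptor of hemidesmosomes, differed between the hairpins by -1.08 (SE 0.18; limma, adjusted p = 0.0168), lower with shS100A10_5, and that call was lost without shS100A10_1 replicate 1 (0.0984), shS100A10_1 replicate 2 (0.0552) or shS100A10_5 replicate 2 (0.114).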

How the data were processed

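RNA of 6 samples was hybridised, 1 array each, after biotin labelling with a whole-transcript kit, per the labels' protocols. The values deposited by the authors are normalized intensity, linear, made in Transcriptome Analysis Console per the submitters' processing notes. Version, background correction and normalization are not stated in what was read here. Detection calls and scan dates were not part of the table used, so neither could enter the analysis. Of 16965 probe sets, 15674 had 1 gene symbol and 1291 none.

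Intensities were converted to log2 and fitted over the 6 arrays with a mean per group in limma 3.58.1 (R 4.3.3, lmFit and eBayes, 3 residual and 7.16 prior degrees of freedom). Two-sided p-values were adjusted over the whole table (Benjamini-Hochberg) and called under 0.05. The fit was tested only on simulated arrays with independent spread. These lacked the span trend and the weight of single arrays seen here, so that test does not bear on the calls. Alternatives covered scaling, dim probe sets, the variance prior, array weights, replicate number, gene span, the groups fitted and each array left out. Members and lists were chosen with earlier results of these data known. Any member could be named. Values on every array are given for members past the threshold and, per class, for the 3 smallest p against shNCT with each hairpin. From the matrix lists, genes past the threshold and those with the smallest p were named. The small number of arrays limits the precision.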

Additional observations from a re-analysis of the deposited data

Results flagged for a closer look

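LAMB2 differed between the hairpins by the test of the difference itself. Its log2 difference, shS100A10_5 minus shS100A10_1, was -0.83 (SE 0.18; limma, adjusted p = 0.0393), with both arrays of shS100A10_5 below both of shS100A10_1. It was the 1 member of 41 past the threshold, against 2.91% of all probe sets, and it missed the threshold whichever array was left out (adjusted p from 0.0628 to 0.181).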

How the results depend on the processing

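Counts of members past the threshold stayed at 0 for shS100A10_1 under all alternatives run. For shS100A10_5 the count of 2 became 1 with array weights and ran from 0 to 2 with 1 array left out. Between the hairpins the count of 1 became 3 with dim probe sets left out, 3 with an intensity trend, 0 with array weights, 0 with the gene span trend removed, 0 with only the groups compared, and 0 with any array left out. With the replicate number as a block it was 2, COL6A1 and LAMB2, and the block changed no other member's call; same-numbered arrays correlated at -0.022, -0.035 and 0.188 in their deviations, of which only that between the hairpins was above 0.1, so the numbers were not taken as a pairing; the labels do not settle it.

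With 1 array left out the fibrillar median ran from -0.376 to -0.154 for shS100A10_1 and from -0.0724 to 0.0865 for shS100A10_5, and the basement membrane median from -0.0956 to -0.0253 and from -0.0885 to 0.0523. With dim probe sets left out, which kept 28 of the 41 members, the basement membrane median was -0.157 for shS100A10_1 and the fibrillar median 0.153 for shS100A10_5. With the span trend removed the shS100A10_5 medians were -0.0998 and -0.0701. The cause of these moves was not tested. Over all probe sets, with every array kept, 32 calls for shS100A10_1 ranged from 16 (only the groups compared) to 98 (intensity trend), 539 for shS100A10_5 from 242 (array weights) to 1454 (intensity trend), and 494 between the hairpins from 287 to 1144. With 1 array left out the ranges were 8 to 16, 3 to 994 and 7 to 656. Dim signal limits what the 13 members below the lower quartile can show.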
